A study of Homo sapiens with 27 samples.

Results

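The insulin-like growth factor (IGF) axis was followed at the level of messenger RNA in U2OS cells, a human line derived from an osteosarcoma, while the cells expanded and after depletion of matrix metalloproteinase 2 (MMP-2). Its 10 members were picked by gene symbol from the 55882 symbols that were counted: the ligand gene IGF2, the receptor genes IGF1R and IGF2R, and the IGF binding protein genes IGFBP1 to IGFBP7. All 10 had a line in each of the 27 count tables. IGF2, IGF1R, IGF2R, IGFBP4, IGFBP5, IGFBP6 and IGFBP7 had between 640 and 26910 reads in every library and were tested in all 16 comparisons. IGFBP1, IGFBP2 and IGFBP3 had at most 13 reads in any library, passed the filter on low counts in none of the comparisons, and are described by their counts.

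Poly(A) RNA was sequenced from 3 stable lines at 3 days of culture, with 3 libraries in each of the 9 groups. The control line, labelled WT, carried a blank pLKO.1 vector, while MMP2sh1 (labelled 23) and MMP2sh2 (labelled 26) each carried a different short hairpin RNA against MMP2 in the same vector, so all 3 lines had been transduced and none was an unmodified parent. Cells were subconfluent at day −2, confluent at day 0 and overconfluent at day +2. All lines grew in medium with fetal bovine serum, and per the study's description MMP-2 from that medium kept acting outside the hairpin cells, which limits them as a model of extracellular loss. Serum also brings IGFs and their binding proteins from outside the cells, which RNA counts do not register.

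IGF1 and IGF2 are peptide ligands that signal through the receptor tyrosine kinase encoded by IGF1R, whereas the product of IGF2R carries IGF2 to lysosomes and so clears it. IGF binding proteins hold the ligands outside the cell, prolong their life or keep them from the receptor, and release them when proteases cut the binding protein. MMP-2 is one of the proteases known to cut several of them, and bone cells store IGFs and binding proteins, above all the IGFBP5 product, in their matrix.

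Each library held 33580129 to 59374327 reads counted on genes. Lines that named no gene held 16.8% to 19.1% of a library and are not part of those totals. Replicates of a group correlated at 0.990 to 0.995 (27 pairs). MMP2 itself was called lower at every day, with log2 fold changes between −2.53 and −2.34 for MMP2sh1 and between −1.06 and −0.70 for MMP2sh2. Among 8 osteoblast lineage markers, RUNX2, ALPL, COL1A1, SPARC and SPP1 were detected in every library, but SP7, BGLAP and COL1A2 had at most 6, 22 and 28 reads. Their summed level at day +2 was 3407 to 3536 CPM in MMP2sh1, above the 2667 to 2859 CPM of the control and the 2633 to 2808 CPM of MMP2sh2, and in the other groups it lay between 2360.1 and 2978 CPM. Endothelial, leukocyte, hepatocyte and myoblast markers had at most 264 reads in a library (VWF). The summed level of 4 epithelial markers, nearly all from KRT8 and KRT18, moved with line and day. At day −2 it spanned 481 to 528 CPM in the control, 689.9 to 756 CPM in MMP2sh1 and 601 to 701 CPM in MMP2sh2, and at day +2 it spanned 368 to 391, 401 to 411 and 397 to 403 CPM. The part of either sum in the results that follow was not tested. In bulk RNA a lower level can come from fewer cells that express a gene or from less RNA in each cell, and these cannot be told apart.

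Levels of different genes were set side by side as CPM (reads scaled to the library total) per kb of exon, with the exon length taken as the union of all annotated exons. The exons came from a GENCODE annotation on GRCh37. The study does not name the annotation behind its counts, so these lengths and shared bases may differ from the counted gene models. The length includes bases shared with other genes, where reads may have been left out of the counts. Such bases made up 44.4% of the length for IGF2, 18.3% for IGFBP7, 7.53% for IGFBP5 and 2.53% for IGF2R. Levels of these genes may thus be understated, and the order and overlaps below hold for this length only. At day −2 in the control, IGFBP4 had 37.0 ± 1.38 CPM per kb (SD, n = 3) and IGFBP6 had 35.3 ± 2.90, and the ranges of these 2 overlapped. IGF2R (14.9), IGFBP7 (14.9), IGF1R (13.2) and IGFBP5 (12.5 CPM per kb) followed, each overlapping its neighbour in the order, and IGF2 came last of the 7 at 3.39 ± 0.474 CPM per kb. By day +2 that order had changed. IGFBP7 (105 ± 4.23 CPM per kb) and IGFBP5 (101 ± 3.93 CPM per kb) overlapped each other at the top, followed without overlap by IGFBP4 at 72.2 ± 4.43, IGFBP6 at 23.5 ± 1.67, IGF2R at 13.1 ± 1.89, IGF1R at 10.6 ± 0.585 and IGF2 at 5.47 ± 0.377 CPM per kb.

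The 7 binding protein transcripts together amounted to 99.7 ± 3.93 CPM per kb at day −2 in the control, 142 ± 4.24 at day 0 and 302 ± 6.97 at day +2. The corresponding sums were 96.5 ± 8.60, 119.9 ± 1.85 and 296 ± 8.65 CPM per kb in MMP2sh1 and 127 ± 10.8, 159 ± 0.0872 and 265 ± 17.4 CPM per kb in MMP2sh2. The make-up of that pool shifted. IGFBP4 and IGFBP6 held 37.1% and 35.4% of it in the subconfluent control, against 23.9% and 7.76% at day +2. IGFBP5 went from 12.5% to 33.6% and IGFBP7 from 14.98% to 34.7% over the same days. In overconfluent MMP2sh1 cells IGFBP7 took 43.9% and IGFBP4 17.0%, and in overconfluent MMP2sh2 cells IGFBP7 took 39.4% and IGFBP4 26.9%. These shares are descriptions of the per-length levels, carry the same limit from shared exon bases, and were not tested.

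**Figure D1:**
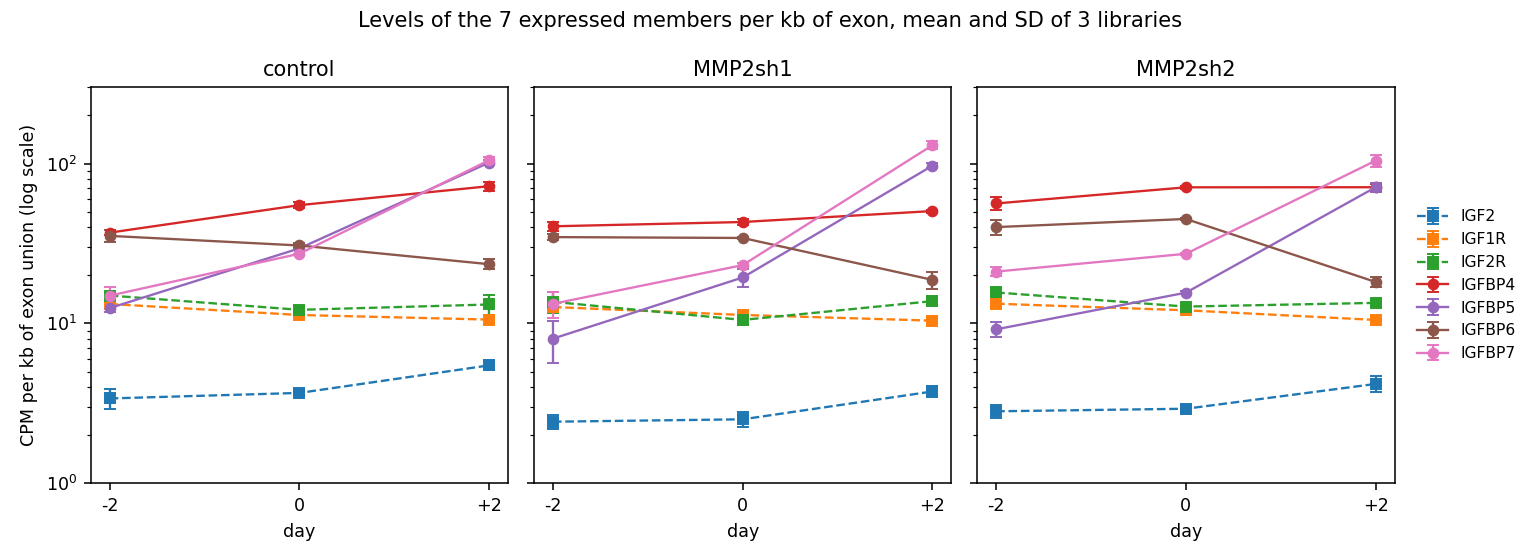
Mean level of the 7 expressed members in CPM per kb of exon union (log axis) by day, 1 panel per line, with bars for the SD of 3 libraries; solid lines are binding proteins and dashed lines are the ligand and the receptors. In the control, IGFBP5 and IGFBP7 climb from 12.5 and 14.9 to 101 and 105 CPM per kb while IGFBP6 goes from 35.3 to 23.5 and IGF2 stays lowest at every day.

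The first question was how the axis changed as the cells became crowded. From day −2 to day +2 all 7 tested members were called at an adjusted p under 0.05 in the control, 4 higher (IGF2, IGFBP4, IGFBP5, IGFBP7) and 3 lower (IGF1R, IGF2R, IGFBP6). In that comparison 56.7% of all genes tested were called, 28.1% higher and 28.6% lower, so a large share of called members was the background of the comparison, and its sizes carry more than its count. The step from day −2 to day 0 called 6 members (3 higher, 3 lower) beside 35.8% of all genes (16.6% higher, 19.2% lower), and the step from day 0 to day +2 called 5 (4 higher, 1 lower) beside 41.4% (21.3% higher, 20.1% lower). Across the whole span 6 members were called in MMP2sh1 (4 higher, 2 lower) beside 55.0% of all genes (27.3% higher, 27.7% lower). In MMP2sh2 7 were called (4 higher, 3 lower) beside 54.8% (27.7% higher, 27.1% lower).

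**Figure D2:**
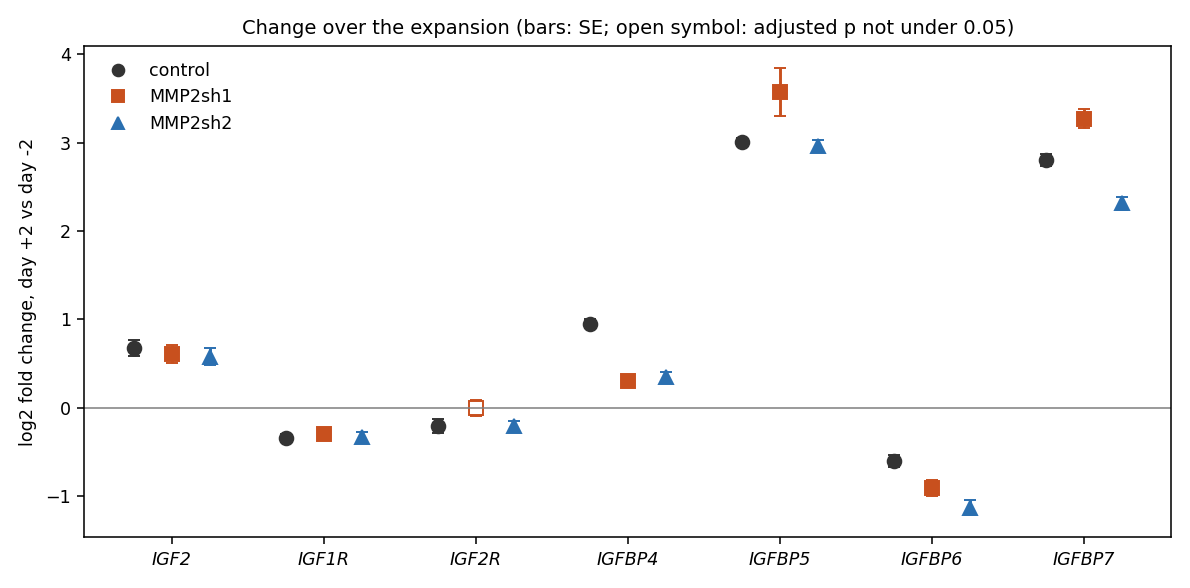
Log2 fold change from day −2 to day +2 of the 7 tested members in the control (circles), MMP2sh1 (squares) and MMP2sh2 (triangles), with bars for 1 SE and open symbols where the adjusted p was not under 0.05. IGFBP5 and IGFBP7 rise by 2.31 to 3.57 on the log2 scale in all 3 lines, IGFBP6 falls by 0.60 to 1.13, and IGFBP4 rises by 0.95 in the control against 0.30 and 0.35 in the hairpin lines.

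The second question was how each hairpin line differed from the control at the same day. Both sets of comparisons use one set of control libraries, so their results are set side by side and are not independent of each other. In MMP2sh1, 1 member was called at day −2 (lower) beside 12% of all genes (6.31% lower, 5.64% higher). At day 0 the count was 5 (all lower) beside 17.1% (8.71% lower, 8.39% higher), and at day +2 it was 4 (3 lower, 1 higher) beside 15.2% (7.29% lower, 7.87% higher). In MMP2sh2, 3 members were called at day −2 (1 lower, 2 higher) beside 11.7% of all genes (6.67% lower, 5.06% higher), 4 at day 0 (2 lower, 2 higher) beside 13.3% (6.02% lower, 7.25% higher), and 3 at day +2 (all lower) beside 6.55% (3.50% lower, 3.05% higher). Ignoring sign, the median log2 fold change over the 7 members was 0.13, 0.24 and 0.31 at day −2, 0 and +2 in MMP2sh1, against 0.16 at each day over all genes tested. In MMP2sh2 it was 0.28, 0.33 and 0.04, against 0.16, 0.15 and 0.13. At day −2 the MMP2sh1 count was 2 without replicate 1 of MMP2sh1, with IGFBP5 added. Calls over all genes were 2384 without that library, against 2257 in the main fit.

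Set directly against each other, the 2 hairpin lines differed in 2 of the 7 members at day −2 beside 10.8% of all genes, in 5 at day 0 beside 18.8%, and in 3 at day +2 beside 7.99%. The change from day −2 to day +2 differed from that of the control in 1 member for MMP2sh1 beside 7.82% of all genes, and in 3 members for MMP2sh2 beside 5.28%. For MMP2sh1 that count became 2 without control replicate 1 of day −2, without MMP2sh1 replicate 3 of day −2 or without MMP2sh1 replicate 1 of day +2. It became 3 without MMP2sh1 replicate 1 of day −2. Calls over all genes in these refits were, in the same order, 1212, 1345, 1797 and 1630, against 1606 in the main fit.

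**Figure D3:**
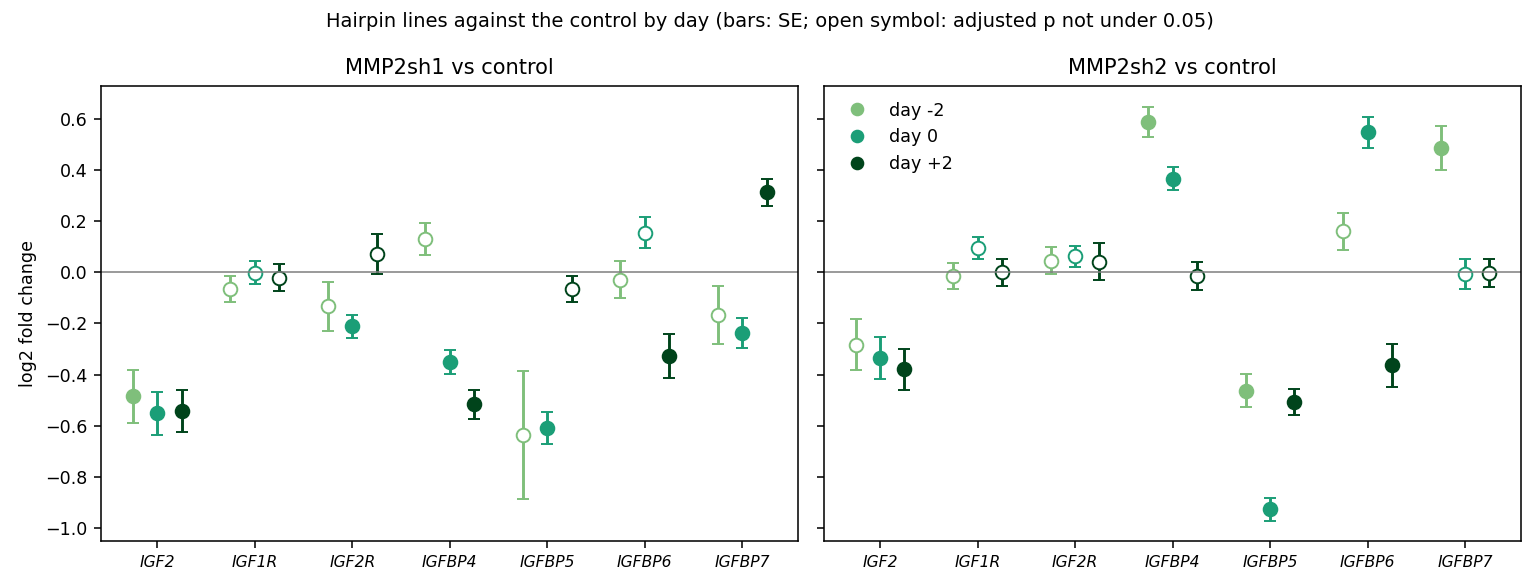
Log2 fold change of the 7 tested members in MMP2sh1 (left) and MMP2sh2 (right) against the control at day −2, 0 and +2 (light to dark), with bars for 1 SE and open symbols where the adjusted p was not under 0.05. IGF2 lies between −0.55 and −0.28 at every day in both lines, IGF1R lies between −0.07 and 0.09, and IGFBP4 lies on opposite sides of 0 in the 2 lines at day 0 (−0.35 and 0.37).

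Among the ligand genes only IGF2 was well counted, since IGF1 had 0 to 20 reads per library and the insulin gene INS had none. Of the exon bases of IGF1, 82.5% are shared with HELLPAR, and 37.5% of those of INS are shared with INS-IGF2. Reads there may have been left out, so these counts do not show that IGF1 or INS RNA was absent. IGF2 lies on chromosome 11 (2150342 to 2179621, minus strand, GRCh37), in the imprinted cluster next to H19. In the control it measured 23.2, 21.6 and 28.1 CPM in the 3 libraries of day −2, 26.6, 25.3 and 26.9 CPM at day 0, and 38.6, 36.6 and 42.0 CPM at day +2. The overconfluent libraries were thus all above the others, whereas those of the first 2 days overlapped. The rise from day −2 to day +2 was 1.60-fold (log2 0.68, SE 0.09, adjusted p = 1.4e-07), and it lay after confluence: the step to day 0 was 0.12 (SE 0.09, adjusted p = 0.31) and the step from day 0 to day +2 was 0.58 (SE 0.07, adjusted p = 7.2e-08). Without control replicate 3 of day −2 the first step was also called (0.24).

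In MMP2sh1, IGF2 had 17.3, 15.7 and 19.1 CPM at day −2, 17.9, 16.05 and 19.9 CPM at day 0, and 24.5, 28.7 and 27.3 CPM at day +2. No MMP2sh1 library reached any control library of its day. The log2 fold changes were −0.48 (SE 0.10, adjusted p = 0.0021), −0.55 (SE 0.09, adjusted p = 6.5e-06) and −0.54 (SE 0.08, adjusted p = 4.5e-06), or 1.40-fold to 1.47-fold lower. In MMP2sh2 the values were 18.0, 21.4 and 21.1 CPM at day −2, 20.8, 21.8 and 20.2 CPM at day 0, and 33.8, 27.9 and 28.0 CPM at day +2, again below every control library of the same day. IGF2 fell there by 0.33 at day 0 (SE 0.08, adjusted p = 0.0033) and by 0.38 at day +2 (SE 0.08, adjusted p = 0.001). At day −2 the MMP2sh2 difference was −0.28 (SE 0.10, adjusted p = 0.061), and it was called without control replicate 2 (−0.36), with no filter on low counts (−0.29) or with a stricter filter that asks for 10 reads in each library compared (−0.28).

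The 2 hairpin lines were not called apart in IGF2 at any day, with differences of MMP2sh1 against MMP2sh2 of −0.21 (95% interval −0.42 to 0.00), −0.22 (−0.39 to −0.04) and −0.16 (−0.34 to 0.02) on the log2 scale. The day 0 difference was called without MMP2sh1 replicate 3 (−0.29). IGF2 also rose during the expansion of both hairpin lines, by 0.61 in MMP2sh1 and 0.58 in MMP2sh2 (SE 0.10 each), and these rises were not called different from the control (differences of −0.06, 95% interval −0.32 to 0.21, and −0.10, −0.36 to 0.16). Counting was not stranded, and 44.4% of the exon bases of IGF2 are shared with other annotated genes, among them INS-IGF2 and the antisense gene IGF2-AS. Reads that fell on more than 1 gene were left out, so reads in the shared stretch may be missing from IGF2. IGF2-AS had at most 23 reads in a library. INS-IGF2 had none, but all of its annotated exon bases are shared, so its count does not show where such reads came from.

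H19, the noncoding RNA made from the other parental copy of the imprinted cluster, was low, with mean levels of 2.88, 5.65 and 6.21 CPM at day −2, 0 and +2 in the control. In the control it rose by 1.10 over the expansion (SE 0.19, adjusted p = 1.5e-05). In MMP2sh1 it was lower at day 0 (−0.83, SE 0.18, adjusted p = 0.00094) and day +2 (−0.79, SE 0.18, adjusted p = 0.0015), and at day −2 the value was −0.65 (adjusted p = 0.097), called with all 27 libraries in 1 fit (−0.65). The MMP2sh2 differences were −0.11, −0.26 and −0.39, with adjusted p from 0.2 to 0.82.

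IGF1R, the signalling receptor on chromosome 15 (99191768 to 99507759, plus strand, GRCh37), drifted down in all lines. Its control libraries had 185, 187 and 182 CPM at day −2, 153, 158 and 162 CPM at day 0, and 157, 144 and 142 CPM at day +2. The subconfluent libraries stood above the rest, and those of day 0 and day +2 overlapped. The fall from day −2 to day +2 was 1.27-fold (−0.34, SE 0.05, adjusted p = 3.4e-07), most of it in the step to day 0 (−0.23, SE 0.04, adjusted p = 4e-05). The later step was −0.09 (adjusted p = 0.13) and was called without control replicate 1 of day +2 (−0.13). IGF1R fell by 0.30 in MMP2sh1 and by 0.33 in MMP2sh2 (SE 0.06 each), close to the control (differences of 0.05, 95% interval −0.10 to 0.19, and 0.01, −0.13 to 0.15).

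No hairpin comparison called IGF1R. In MMP2sh1 its log2 fold changes against the control were −0.07 (95% interval −0.17 to 0.04), 0.00 (−0.09 to 0.09) and −0.02 (−0.13 to 0.08), and in MMP2sh2 they were −0.01 (−0.11 to 0.09), 0.09 (0.01 to 0.18) and 0.00 (−0.11 to 0.10). Of the 7 members it was the one whose intervals stayed closest to 0 in both lines. MMP2sh1 lay below MMP2sh2 at day 0 by 0.09 (adjusted p = 0.16), a difference that was called without MMP2sh1 replicate 3 of that day (−0.15).

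IGF2R, the receptor that removes IGF2 and sorts lysosomal enzymes, lies on chromosome 6 (160390114 to 160534539, plus strand, GRCh37). Its replicates spread widely in some groups. Its control libraries had 320.2, 349 and 345 CPM at day −2, 263, 292 and 271 CPM at day 0, and 346, 279 and 267 CPM at day +2, so the last group spanned most of the range of the other 2. The fall from day −2 to day 0 was clear of that spread (−0.30, SE 0.04, adjusted p = 1.4e-06). The difference over the whole span (−0.20, SE 0.08, adjusted p = 0.039) was not: the groups overlapped, and the call was lost without control replicate 2 or 3 of day −2 or replicate 2 or 3 of day +2, with values of −0.19 to −0.14. It was also lost with DESeq2 (−0.21), with the stricter filter (−0.19) and with all 27 libraries in 1 fit (−0.21). The step from day 0 to day +2 was 0.11 (adjusted p = 0.35) and was called without control replicate 3 of day +2 (0.19) or with no filter on low counts (0.12).

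In MMP2sh1 IGF2R measured 256, 333 and 337 CPM at day −2, 229.7, 226.3 and 258 CPM at day 0, and 321, 324 and 290.3 CPM at day +2. Only day 0 was called against the control (−0.21, SE 0.05, adjusted p = 0.00066), with no overlap, and that call was lost with all 27 libraries in 1 fit (−0.21). The day +2 difference of 0.07 was called without control replicate 1 of that day (0.19). MMP2sh2 libraries spanned 284 to 372 CPM and none of the 3 days was called, with differences of 0.04 to 0.06. At day 0 MMP2sh1 was 1.21-fold below MMP2sh2 (−0.27, SE 0.04, adjusted p = 2.8e-06), a call lost with all 27 libraries (−0.28). At day −2 the difference of −0.18 (adjusted p = 0.14) was called without MMP2sh1 replicate 3 (−0.25) or with no filter (−0.19). Over the expansion IGF2R fell by 0.21 in MMP2sh2 (SE 0.06, adjusted p = 0.0028; not called with all 27 libraries, −0.22) and had a value of 0.00 in MMP2sh1 (95% interval −0.19 to 0.18).

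**Figure D4:**
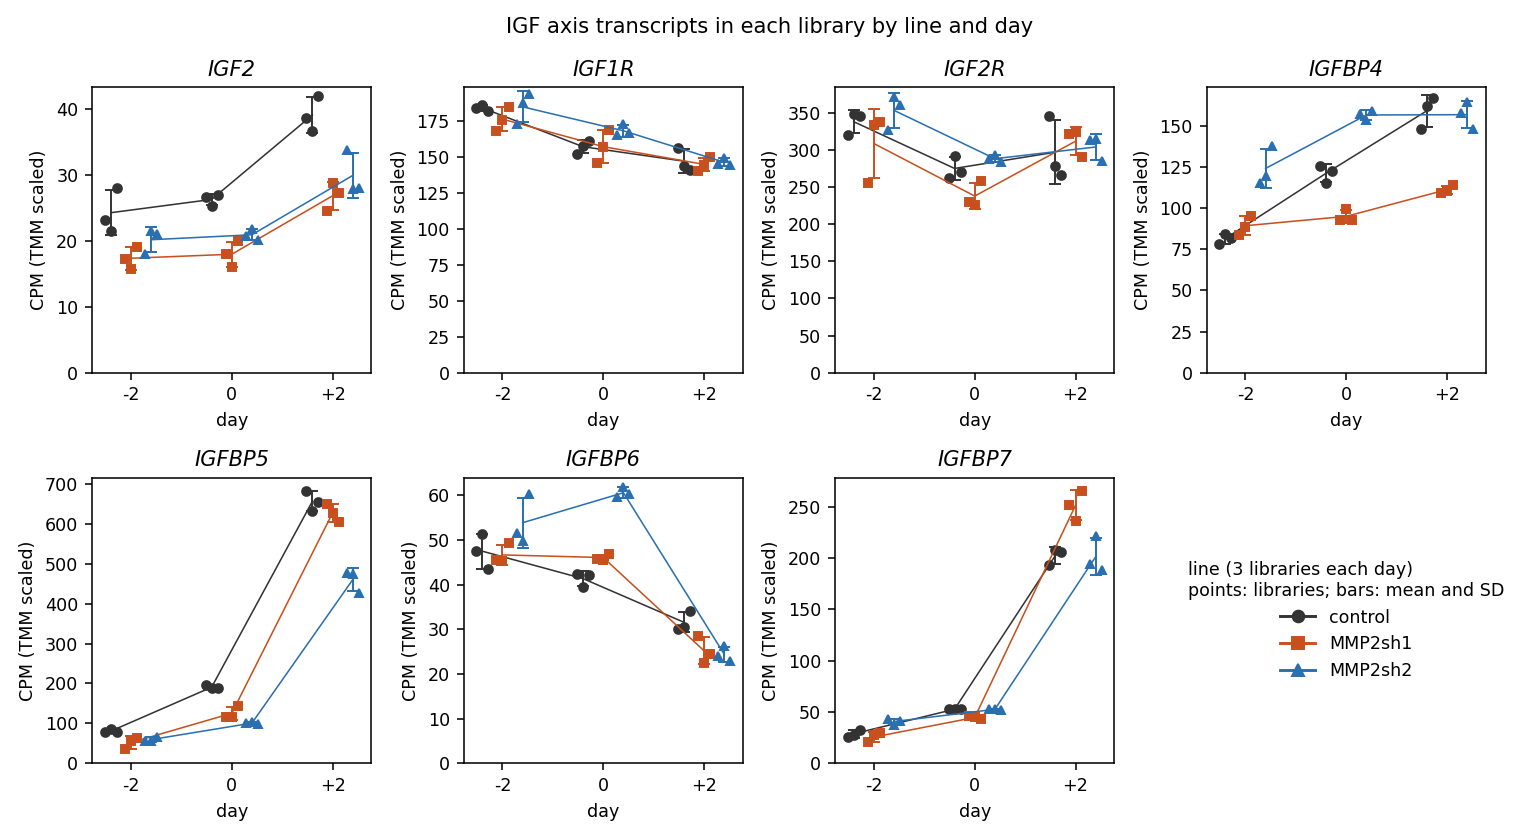
CPM of each library (points) with the mean and SD of 3 libraries, for the 7 tested members by day, in the control (black circles), MMP2sh1 (orange squares) and MMP2sh2 (blue triangles), each panel on its own linear axis from 0. IGF2 of the control lies above both hairpin lines at every day, IGFBP4 of MMP2sh1 stays between 83.7 and 114 CPM while the control climbs from 78.3 to 167 CPM, and IGFBP5 and IGFBP7 stand far higher at day +2 than before in all 3 lines.

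IGFBP4 encodes a soluble inhibitor of IGF action that is released from its ligand mainly by the protease PAPP-A. It lies on chromosome 17 (38599702 to 38613977, plus strand, GRCh37). The levels of IGFBP4, IGFBP5, IGFBP6 and IGFBP7 moved in different ways with density and hairpin, and IGFBP7 had no promoter in the RefSeq table used. The windows below are on GRCh38.p14, a different build from the gene positions, and read 5′ to 3′ on the strand of the gene. For IGFBP4, IGFBP5 and IGFBP6 they show the 150 bases before the start in RefSeq, with matches to the motifs that were searched in capitals:
IGFBP4, chr17:40443300-40443449, plus strand: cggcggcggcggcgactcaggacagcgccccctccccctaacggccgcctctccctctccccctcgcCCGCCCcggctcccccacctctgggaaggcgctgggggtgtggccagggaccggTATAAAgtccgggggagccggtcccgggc
IGFBP5, chr2:216695550-216695699, minus strand: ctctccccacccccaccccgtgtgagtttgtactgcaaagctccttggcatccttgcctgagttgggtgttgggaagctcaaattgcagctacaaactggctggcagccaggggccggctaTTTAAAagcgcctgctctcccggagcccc
IGFBP6, chr12:53097517-53097666, plus strand: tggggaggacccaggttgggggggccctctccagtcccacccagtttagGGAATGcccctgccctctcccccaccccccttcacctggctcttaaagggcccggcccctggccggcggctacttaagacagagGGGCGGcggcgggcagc
The motifs, read on both strands, were TATAAA (the TATA box), the related TTTAAA, the GC box GGGCGG, the box known as CCAAT, the core bound by TEAD factors (CATTCC) and the core bound by AP-1 (TGANTCA). Each was counted separately, also where letters overlap. Matches are descriptions of letters, not binding sites.

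TATAAA stood 29 to 24 bases before the start of IGFBP4, and TTTAAA stood at the same distance from the start of IGFBP5. Windows holding these motifs made up 6.71% and 6.24% of 35116 RefSeq promoter windows of the same length. TTTAAA was added to the search after the IGFBP5 window had been read. IGFBP6 held CATTCC on the other strand (7.08% of windows) and GGGCGG (36.79%), and IGFBP4 held GGGCGG on the other strand. CCAAT (23.52% of windows) and TGANTCA (4.17%) were in none of these 3 windows. Of the 10 members 7 had a promoter in the table, and those without were IGF2, IGFBP1 and IGFBP7. GC content was 77.3% in the IGFBP4 window, 70.7% in that of IGFBP6 and 59.3% in that of IGFBP5, against a median of 60.0% over all windows.

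IGFBP4 rose with density in the control, from 78.3, 84.3 and 82.0 CPM at day −2 to 126, 115 and 123 CPM at day 0 and 148, 162 and 167 CPM at day +2, and no 2 days overlapped. The rise was 1.93-fold over the whole span (0.95, SE 0.05, adjusted p = 5.2e-15), with 0.57 (SE 0.05) before and 0.40 (SE 0.05) after confluence. In MMP2sh1 the values were 83.7, 88.8 and 95.4 CPM, then 92.8, 99.5 and 92.7 CPM, then 109, 111 and 114 CPM. In MMP2sh2 they were 115, 119.7 and 137 CPM, then 157, 154 and 159 CPM, then 158, 165 and 148 CPM. MMP2sh1 thus overlapped the control at first and ended below it, whereas MMP2sh2 lay above it at day −2 and overlapped it at day +2.

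Against the control, IGFBP4 in MMP2sh1 was 0.13 at day −2 (SE 0.06, adjusted p = 0.18), −0.35 at day 0 (SE 0.05, adjusted p = 4.2e-07) and −0.52 at day +2 (SE 0.06, adjusted p = 1e-08). For MMP2sh2 the differences were 0.59 (SE 0.06, adjusted p = 6.6e-08), 0.37 (SE 0.05, adjusted p = 4.5e-08) and −0.02 (SE 0.06, adjusted p = 0.93). The lines lay on opposite sides of the control at day 0, and MMP2sh1 was below MMP2sh2 at every day, by 1.38-fold, 1.64-fold and 1.42-fold (−0.46, −0.71 and −0.50, highest adjusted p = 1.7e-05). Despite these different levels, the rise over the expansion was 0.30 (SE 0.06) in MMP2sh1 and 0.35 (SE 0.06) in MMP2sh2, both smaller than in the control. The difference in rise from the control was −0.64 for MMP2sh1 (SE 0.08, adjusted p = 1.3e-06) and −0.61 for MMP2sh2 (SE 0.09, adjusted p = 6.8e-06), and both differences use the same control libraries.

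IGFBP5 encodes the binding protein that is most abundant in bone matrix and can both hold back and promote IGF action. Its gene on chromosome 2 (217536828 to 217560272, minus strand, GRCh37) had the largest change with density of the 7. The control libraries measured 78.5, 85.3 and 78.1 CPM at day −2, 196, 187 and 189 CPM at day 0, and 682, 632 and 654 CPM at day +2. The 3 days were far apart, and the rise was 8.05-fold (3.01, SE 0.05, adjusted p = 8.5e-27), made of 2.37-fold up to confluence and 3.45-fold after it. It rose by 3.57 in MMP2sh1 (SE 0.27, adjusted p = 0.00041), or 11.9-fold, and by 2.96 in MMP2sh2 (SE 0.07, adjusted p = 2.2e-28), or 7.79-fold.

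The MMP2sh1 libraries had 34.9, 56.5 and 64.5 CPM of IGFBP5 at day −2, 117, 116 and 143 CPM at day 0, and 649.6, 627 and 604 CPM at day +2. Replicate 1 of day −2 was well below its group. All were below the control at the first 2 days, and the groups overlapped at day +2. The differences were −0.63 at day −2 (SE 0.25, adjusted p = 0.23), −0.61 at day 0 (SE 0.06, adjusted p = 2e-06) and −0.07 at day +2 (SE 0.05, adjusted p = 0.43). Without replicate 1 of MMP2sh1 the day −2 difference was −0.42 and was called, and it was also called with all 27 libraries in 1 fit (−0.63). The larger rise of MMP2sh1 over the expansion (0.57 above the control, SE 0.25, adjusted p = 0.25) was likewise called only without that library, at 0.36, among the libraries left out in turn.

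In MMP2sh2 IGFBP5 had 55.4, 56.1 and 66.6 CPM at day −2, 100.4, 103 and 99.0 CPM at day 0, and 477, 475 and 427 CPM at day +2, below every control library of the same day. It was 1.38-fold lower at day −2 (−0.46, SE 0.07, adjusted p = 2.1e-05), 1.90-fold lower at day 0 (−0.93, SE 0.04, adjusted p = 7.8e-22) and 1.42-fold lower at day +2 (−0.51, SE 0.05, adjusted p = 1.8e-10). The rise over the expansion differed from that of the control by −0.05 (95% interval −0.21 to 0.11). MMP2sh1 was above MMP2sh2 by 0.32 at day 0 (SE 0.06, adjusted p = 0.00044) and by 0.44 at day +2 (SE 0.05, adjusted p = 1.7e-06). The day 0 call was lost without MMP2sh2 replicate 2 (0.33) or with all 27 libraries in 1 fit (0.31).

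IGFBP7 encodes a secreted protein that binds IGFs weakly and insulin more strongly than its relatives do, and is found in the matrix. It lies on chromosome 4 (57896939 to 57976551, minus strand, GRCh37), and 18.3% of its exon bases are shared with IGFBP7-AS1 or POLR2B. Its control values were 25.6, 27.9 and 32.9 CPM at day −2, 52.8, 52.7 and 52.7 CPM at day 0, and 193, 208 and 206 CPM at day +2. That is a 6.998-fold rise (2.81, SE 0.07, adjusted p = 3.8e-20), with 1.84-fold up to confluence and 3.86-fold after it. IGFBP7-AS1 had at most 47 reads in a library.

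IGFBP7 in MMP2sh1 measured 20.4, 27.1 and 29.3 CPM at day −2, 45.7, 44.8 and 43.6 CPM at day 0, and 252, 237 and 266 CPM at day +2. It was below all control libraries at day 0 (−0.24, SE 0.06, adjusted p = 0.0027) and above all of them at day +2 (0.31, SE 0.05, adjusted p = 3.5e-05), while day −2 overlapped (−0.17, adjusted p = 0.41). The day 0 call was lost with all 27 libraries in 1 fit (−0.23). In MMP2sh2 it measured 42.8, 37.8 and 41.7 CPM at day −2, 53.4, 52.7 and 51.8 CPM at day 0, and 194, 222 and 188 CPM at day +2. There it was 1.40-fold above the control at day −2 (0.48, SE 0.09, adjusted p = 0.00038) and overlapped the control at day 0 (−0.01, 95% interval −0.12 to 0.11) and at day +2 (0.00, −0.11 to 0.11).

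The rise of IGFBP7 over the expansion was 9.67-fold in MMP2sh1 (3.27, SE 0.11) and 4.97-fold in MMP2sh2 (2.31, SE 0.07). The MMP2sh2 rise was smaller than that of the control by 0.49 (−0.49, SE 0.10, adjusted p = 0.0013). For MMP2sh1 the difference was 0.48 (SE 0.17, adjusted p = 0.12), and it was called without control replicate 1 of day −2 (0.54), without MMP2sh1 replicate 1 of day −2 (0.34) or without MMP2sh1 replicate 3 of day −2 (0.56). It was also called with no filter (0.47) or with all 27 libraries in 1 fit (0.48). The 2 hairpin lines differed at all 3 days, MMP2sh1 being lower at day −2 (−0.66, SE 0.10, adjusted p = 2.9e-05) and day 0 (−0.23, SE 0.06, adjusted p = 0.0043) and higher at day +2 (0.31, SE 0.06, adjusted p = 0.00089). The day 0 difference was not called with all 27 libraries (−0.24).

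IGFBP6, whose product prefers IGF2 over IGF1, lies on chromosome 12 (53491220 to 53496129, plus strand, GRCh37) and was the one binding protein gene that fell with density. Its control libraries had 47.6, 51.3 and 43.5 CPM at day −2, 42.4, 39.5 and 42.2 CPM at day 0, and 30.0, 30.6 and 34.2 CPM at day +2. The day +2 libraries lay below all others, and the fall was 1.52-fold (−0.60, SE 0.07, adjusted p = 3.5e-08). The first step of −0.20 (adjusted p = 0.014) lost its call without control replicate 2 of day −2 (−0.14) or of day 0 (−0.17), and the second was −0.38 (SE 0.07, adjusted p = 4e-05).

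MMP2sh1 had 45.5, 45.3 and 49.2 CPM of IGFBP6 at day −2, 45.9, 45.6 and 46.8 CPM at day 0, and 28.5, 22.6 and 24.6 CPM at day +2. MMP2sh2 had 51.6, 49.8 and 60.3 CPM, then 59.6, 61.9 and 60.2 CPM, then 24.1, 26.3 and 23.0 CPM. Both hairpin lines lay above every control library at day 0 and below every one at day +2. At day 0 the difference from the control was 0.15 in MMP2sh1 (SE 0.06, adjusted p = 0.08) and 0.55 in MMP2sh2 (SE 0.06, adjusted p = 2.1e-09), or 1.46-fold higher in the latter. At day +2 it was −0.33 in MMP2sh1 (SE 0.09, adjusted p = 0.0075) and −0.36 in MMP2sh2 (SE 0.08, adjusted p = 0.0025). The MMP2sh1 call was lost without control replicate 3 (−0.26) or MMP2sh1 replicate 2 (−0.26), and the MMP2sh2 call without control replicate 3 (−0.30).

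The fall of IGFBP6 over the expansion was 1.88-fold in MMP2sh1 (−0.91, SE 0.09) and 2.19-fold in MMP2sh2 (−1.13, SE 0.08). It exceeded that of the control by 0.53 on the log2 scale in MMP2sh2 (−0.53, SE 0.11, adjusted p = 0.0021). The MMP2sh1 difference was −0.30 (SE 0.11, adjusted p = 0.12) and was called without MMP2sh1 replicate 1 of day +2 (−0.39). Between the hairpin lines only day 0 was called (−0.39, SE 0.06, adjusted p = 2e-06), and the values at day −2 and day +2 were −0.19 and 0.04.

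IGFBP1, IGFBP2 and IGFBP3, whose products include the main carrier of IGFs in blood (IGFBP-3), were at the edge of detection. IGFBP1 had no read in 22 of 27 libraries and at most 4 reads. IGFBP2 had no read in 22 libraries and at most 6 reads. IGFBP3 had no read in 17 libraries, and its 13 reads in replicate 1 of MMP2sh1 at day −2 (0.351 CPM) were the highest count of the 3 genes. A count of 0 allows up to 3 reads, or 0.0505 to 0.0893 CPM depending on the depth of the library, and covers counting error only. In the control IGFBP3 had 4, 1 and 4 reads at day −2 and none in the 3 libraries of day +2. At this depth none of the 3 genes was tested for a difference between groups.

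A list of 62 further genes of the pathway, ordered by role, was read in the same fits. In the expansion of the control, 41 of 55 tested genes were called (22 higher, 19 lower), beside 56.7% of all genes (28.1% higher, 28.6% lower), and the median log2 fold change of the list was 0.02 against 0.03 over all genes. The counts were 39 of 55 in MMP2sh1 (23 higher, 16 lower) beside 55.0% of all genes, and 38 of 55 in MMP2sh2 (21 higher, 17 lower) beside 54.8%. The counts by role in the control that follow are to be read against the same 56.7%, and nothing particular to a role is drawn from them. Proteases that cut binding proteins, and their inhibitors, held the largest rise and the largest fall of the list, with 8 of 9 genes called (5 higher, 3 lower) beside 56.7% of all genes. HTRA1, a secreted serine protease that cuts several IGFBPs, went from 12.3 ± 1.32 to 59.7 ± 1.37 CPM (2.28, SE 0.08, adjusted p = 1e-19), and PLAU, the urokinase plasminogen activator, rose by 1.26 (SE 0.06). ADAM12, a metalloproteinase known to cut the IGFBP3 and IGFBP5 products, fell from 72.2 ± 1.28 to 12.5 ± 1.42 CPM (−2.55, SE 0.08, adjusted p = 3.3e-21).

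The gene for PAPP-A itself, PAPPA, was low (4.39 ± 0.966 CPM at day −2 in the control) and was not called in the control expansion (0.20, SE 0.18, adjusted p = 0.36). Its relative PAPPA2 fell by 0.94 (SE 0.38, adjusted p = 0.035) at 4 to 138 reads per library, a call that was lost without control replicate 1 or 3 of day −2 or replicate 1 or 3 of day +2 (−0.96 to −0.76), with DESeq2 (−0.95) or with no filter on low counts (−0.94). Of the stanniocalcins, which inhibit PAPP-A, STC1 rose by 1.16 (SE 0.20, adjusted p = 2.5e-05) and STC2, with 1 to 44 reads per library, fell by 2.28 (SE 0.68, adjusted p = 0.0057). Among docking proteins and attenuators downstream of IGF1R, 9 of 11 were called (3 higher, 6 lower) beside 56.7%. IRS1, the main docking protein of the receptor, fell from 228 ± 7.69 to 129 ± 6.19 CPM (−0.83, SE 0.05, adjusted p = 7.8e-15), and the adaptor GRB14 fell by 1.29 (SE 0.20). IRS2 had no read in 22 of 27 libraries and at most 6 reads, and IRS4 rose by 2.13 (SE 0.44, adjusted p = 0.00013) at 9 to 68 reads per library.

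The PI3K, AKT and TOR group had 14 of 18 genes called (7 higher, 7 lower) beside 56.7% of all genes, with RPTOR, the scaffold of TOR complex 1, lower by 0.97 (−0.97, SE 0.05). Beside the same 56.7%, FOXO factors had 2 of 3 called, both higher, and imprinted neighbours and regulators of IGF2 had 4 of 4 called (3 higher, 1 lower), led by HMGA2, an architectural chromatin protein (1.31, SE 0.05, adjusted p = 5.2e-18). The insulin receptor gene INSR was not called in the control (0.17, SE 0.11, adjusted p = 0.21).

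**Figure D5:**
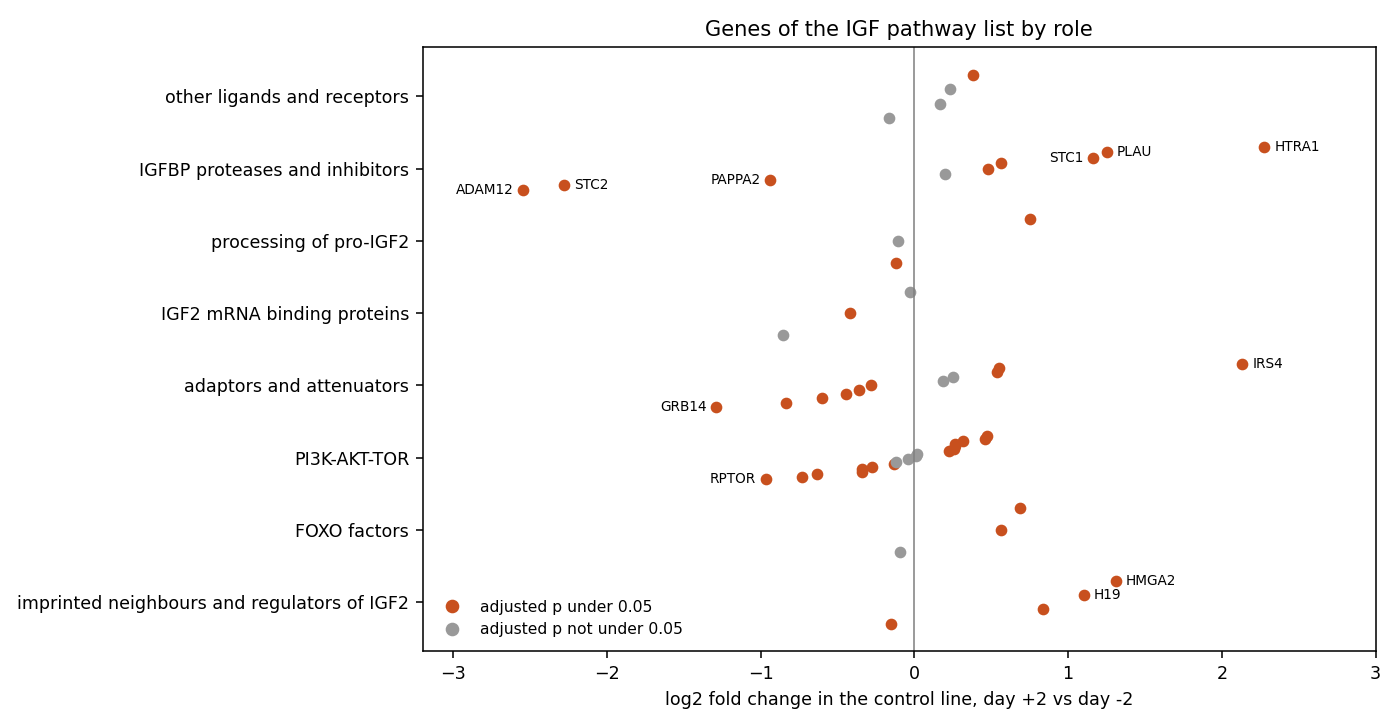
Log2 fold change from day −2 to day +2 in the control line (horizontal axis) of the 55 tested genes of the pathway list, grouped by role (vertical axis), with filled orange points where the adjusted p was under 0.05 and grey points otherwise. HTRA1 (2.28) and ADAM12 (−2.55) lie at opposite ends of the protease group, and all genes of the PI3K, AKT and TOR group lie within 1 of 0.

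Against the control, 10 of 55 listed genes were called in MMP2sh1 at day −2 (8 lower, 2 higher) beside 12% of all genes, 21 at day 0 (15 lower, 6 higher) beside 17.1%, and 18 at day +2 (9 lower, 9 higher) beside 15.2%. In MMP2sh2 the counts were 12 of 55 (7 lower, 5 higher) beside 11.7%, 13 of 55 (6 lower, 7 higher) beside 13.3%, and 7 of 56 (3 lower, 4 higher) beside 6.55%. The MMP2sh2 counts moved when 1 library was left out. At day −2 they ranged from 1 (without control replicate 1) to 9, and at day 0 from 6 (without control replicate 1) to 12. At day +2 they ranged from 4 (without control replicate 3) to 8. Other low counts came without control replicate 2 (6), control replicate 3 (4), MMP2sh2 replicate 2 (7) or MMP2sh2 replicate 3 (5) at day −2. At day 0 the count was 7 without MMP2sh2 replicate 2. Calls over all genes fell too. Without control replicate 1 they went from 2211 to 833 at day −2 and from 2530 to 1739 at day 0. Without control replicate 3 they went from 1267 to 705 at day +2. Nothing particular to the list is drawn from these ranges.

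Listed genes called with 1 sign at all 3 days included IRS1 and SOCS3 in MMP2sh1 and HMGA2 in MMP2sh2. IRS1 was lower in MMP2sh1 by log2 values of −0.21, −0.29 and −0.28 at day −2, 0 and +2, while in MMP2sh2 its differences were 0.06, 0.01 and 0.06 and were not called. SOCS3, a feedback inhibitor of cytokine and insulin-type receptors, was lower in MMP2sh1 by values of −0.25, −0.39 and −0.32. HMGA2 in MMP2sh2 had differences of −0.18, −0.16 and −0.35. Some of these calls rested on 1 library: at day −2 IRS1 lost its call without control replicate 3 (−0.18) and SOCS3 without control replicate 1 (−0.23). HMGA2 lost its day −2 call without any 1 of the 6 libraries (−0.21 to −0.17), with median-of-ratios scaling (−0.18) or with no filter (−0.19). It lost its day 0 call without control replicate 1 (−0.15), control replicate 3 (−0.16) or MMP2sh2 replicate 2 (−0.12), or with all 27 libraries in 1 fit (−0.15). In MMP2sh1 at day −2 HMGA2 was not called in the main fit. There it was called higher with all 27 libraries in 1 fit (0.16) or without MMP2sh1 replicate 1 (0.23). SOCS3 in MMP2sh2 and HMGA2 in MMP2sh1 were not called with 1 sign at all 3 days.

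The pattern of each gene over the 9 group means of log2 CPM was last compared with that of IGF2 and of IGFBP5 among 15136 genes with a mean of at least 1 CPM. The genes most like IGF2 were LAMP2, ACVR2B-AS1 and GDF11 (Pearson r of 0.98 each), and those most like IGFBP5 were PLCB1, ITFG1 and CYP39A1 (r = 0.996, 0.996 and 0.995). Among the members IGFBP7 followed IGFBP5 most closely (r = 0.962), IGF2 less so (r = 0.843), and IGF1R and IGFBP6 ran opposite to it (r = −0.929 and −0.880). By likeness to IGFBP5, IGFBP7 ranked only 444 and IGF2 2550 among the 15136 genes, so many genes outside the axis followed IGFBP5 more closely. The 9 points share lines, days and libraries, so these values describe the 9 groups and carry no test.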

How the data were processed

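RNA of 27 U2OS libraries was read as paired ends. Per the labels and the study's methods, the authors used Trim Galore 0.6.0 for trimming, STAR 2.7.3a for alignment to the hg19 genome, and counted reads per gene over exons, without strand, with HTSeq 2.0.0, leaving out reads that fell on more than 1 gene. The deposited values were whole-number read counts. From these, the 5 lines that name no gene were set aside (16.8% to 19.1% of a library), and totals of 33580129 to 59374327 set the precision.

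Each of 16 comparisons was fitted on its own libraries across all genes with edgeR 4.0.16 (quasi-likelihood test, robust, TMM scaling, R 4.3.3) after a filter on low counts (filterByExpr, minimum 10, total 15), with Benjamini-Hochberg adjustment over all genes tested and a threshold of 0.05. SE was the absolute log2 fold change over the square root of F. CPM were TMM-scaled over all 27 libraries. Groups came from the labels. The study calls the 3 libraries of a group biological replicates, and p-values measure the spread between them. Each hairpin and the control was a single stable line, so these p-values do not measure the spread between separately made lines. Other differences between the lines cannot be told apart from the knockdown. In simulated counts for MMP2sh1 against the control at day −2, the test recovered 135 of 200 genes changed 2-fold and made 7 false calls among 18840 genes. The member differences in that comparison were smaller than 2-fold. For the expansion of MMP2sh1 against that of the control, the interaction test recovered 111 of 200 genes changed 2-fold, with 1 false call among 20384. Recovery of smaller changes was not simulated for either test. Alternatives were DESeq2 1.42.0, median-of-ratios scaling, other filters, a fit of all 27 libraries, the replicate number as a block, and each library left out in turn.

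The members and lists were chosen with earlier results of these data known. Named pathway genes were those called with one sign at all 3 days in a hairpin line, the 5 largest rises and the 5 largest falls in the control expansion, IGF1, INSR, IRS1, IRS2, PAPPA and H19, and the 3 genes most like IGF2 and like the member that changed most. Positions are GRCh37, and promoters came from a RefSeq table on GRCh38.p14. Protein and hairpin sequences were not used here. One gene that the naming rule selects is not reported here.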

Additional observations from a re-analysis of the deposited data

Results flagged for a closer look

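The change from day −2 to day +2 differed from that of the control, by the edgeR interaction test over all genes, in 4 cases among the members. IGFBP4 rose less in MMP2sh1 (a difference in log2 fold change of −0.64) and in MMP2sh2 (−0.61). IGFBP6 fell further in MMP2sh2 (−0.53). IGFBP7 rose less in MMP2sh2 (−0.49). The tests of the 2 hairpin lines share the control libraries. Groups of 3 libraries were too small for a test of single outlying libraries.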

How the results depend on the processing

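No member result changed sign past its threshold under any alternative. Of 112 member results, DESeq2 ended 1 call, other scaling changed none, the stricter filter ended 1 and added 1, no filter added 4, and the fit of all 27 libraries ended 7 and added 2. Of 756 results with 1 library left out, 10 calls were lost and 14 gained. The number of members called in MMP2sh1 at day −2 went from 1 to 2 with all 27 libraries, and ranged from 1 to 2 with 1 library left out. At day 0 it went from 5 to 3 with all 27 libraries. Between the hairpin lines at day 0 it went from 5 to 2 with all 27 libraries. For the expansion of MMP2sh1 against that of the control it went from 1 to 2 with no filter or with all 27 libraries, and ranged from 1 to 3 with 1 library left out. On the pathway list, an alternative added after seeing the data, the MMP2sh2 count at day 0 went from 13 to 8 with all 27 libraries, and with 1 library left out the MMP2sh2 counts ranged from 1 to 9, 6 to 12 and 4 to 8 at day −2, 0 and +2. The STC2 fall in the control expansion was not called with all 27 libraries (−2.28). Calls over all genes moved as well. With all 27 libraries they went from 2257 to 2636 in MMP2sh1 at day −2 and from 3340 to 2577 at day 0. At day 0 they went from 3555 to 2617 between the hairpin lines and from 2530 to 1916 in MMP2sh2. For the expansion of MMP2sh1 against that of the control they went from 1606 to 1817, and to 1600 with no filter. The cause of these shifts was not tested.

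Deviations of same-numbered replicates from their group means correlated at −0.13 to 0.22 over 13460 genes. With groups of 3 libraries these values do not settle whether same-numbered libraries share anything beyond a number. With the replicate block, the members called went from 1 to 2 in MMP2sh1 at day −2 and from 2 to 4 between the hairpin lines at day −2. They went from 1 to 2 for the expansion of MMP2sh1 against the control. The pathway list in MMP2sh1 at day −2 went from 10 to 16. Calls over all genes went from 2257 to 2818 in MMP2sh1 at day −2 and from 2036 to 3088 between the hairpin lines at day −2. For the expansion of MMP2sh1 against the control they went from 1606 to 1438, and in the control expansion from 10836 to 10710. The block also ended the calls of IGF2R (−0.21) and PAPPA2 (−0.94) in the control expansion, taking the members called there from 7 to 6, and that of HMGA2 in MMP2sh2 at day −2 (−0.18). In none of the 14 comparisons checked did every library correlate best with its own number. Depth limits IGFBP1, IGFBP2 and IGFBP3, whose levels cannot be compared here.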
